A study of Mus musculus with 36 samples.

Results

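Oxidative phosphorylation is carried out by 5 enzyme complexes of the inner mitochondrial membrane, and most of their subunits are encoded in the nucleus. The members described here are DNase hypersensitive sites (DHS), stretches of open chromatin, at the promoters of these nuclear genes. They were chosen by symbol and position, without use of any measured value. All protein-coding genes whose symbols begin with Nduf, Uqcr, Atp5, Cox4, Cox5, Cox6, Cox7 or Cox8 were taken, together with Sdha, Sdhb, Sdhc and Sdhd, and a DHS counted as a member when no more than 1000 bp separated it from a transcription start site (TSS) that GENCODE vM21 gives any of them (mm10). This gave 93 gene symbols, of which 81 had a DHS, and 90 member DHS among the 52788 DHS of the table. No member DHS served 2 member genes, and 9 genes had 2 DHS each, called first and second below.

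DNase-seq had been run on B3 cells, which are pre-B cells of the mouse kept as a line. A derivative called here the Ikaros line was transduced with a retroviral vector for the transcription factor Ikaros fused to a tamoxifen-responsive ERt2 domain. It was compared with a Control line carrying the empty vector, which by the methods encoded the ERt2 domain without Ikaros. Both lines were sampled at 0, 2, 6, 12, 18 and 24 h, with 3 libraries in each of the 12 groups. These are replicates 4, 5 and 6, which are batches 11, 12 and 13 in the labels. 4-Hydroxytamoxifen at 0.5 µM moves the fusion protein into the nucleus and was given to both lines. The labels name the drug for every library, whereas by the methods no drug was added to cells of 0 h, which were also obtained apart from the rest, so at 0 h absence of the drug and separate collection cannot be told apart. The vector was integrated by retrovirus, and nothing in the labels says how many clones either line holds. As a check of the cell type, 11 of 14 pre-B markers had a promoter DHS, among them Cd79a, Vpreb1, Igll1, Pax5 and Ebf1, while Rag2 and Dntt were among those with none. Of 5 muscle markers only Ckm had one, and of 8 T cell markers Lck, Gata3 and Tcf7 had one.

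Complex I takes electrons from NADH, complex II (succinate dehydrogenase) takes them from succinate, and both hand them to ubiquinone. Complex III passes them on to cytochrome c and complex IV (cytochrome c oxidase) to oxygen, while complex V (ATP synthase) uses the proton gradient that results. Because these genes are needed in nearly every cell, their promoters are textbook examples of housekeeping promoters, often with binding motifs of NRF1, of the ETS factor GABP (also called NRF2) and of YY1. Several complex IV subunits also come as paralog pairs, with a form found widely and a form found mainly in muscle, lung or testis.

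The motifs named above were looked up in promoter windows of 300 bases, 250 before and 50 after the annotated start, from RefSeq (GRCm38.p6). A window was found for 76 of the 93 symbols, and positions count from the start, with +1 its first base and negative numbers before it. The NRF1 core CGCATGCG, on either strand, was in the windows of 10 of these 76 genes (13.2%), against 1.91% of 27025 genes with a window and 4.16% of the 8993 genes whose symbols had a promoter DHS in this table. The YY1 core AAGATGGC was in 10 of 76 (13.2%), against 2.88% of all genes and 5.08% of those with a promoter DHS. The ETS core CCGGAAG was in 17 of 76 (22.4%), against 9.12% of all genes but 20.0% of those with a promoter DHS. Some of the 76 had no promoter DHS. Of the 67 member genes with a window and a promoter DHS, 13.4% held the NRF1 core, 11.9% the YY1 core and 23.9% the ETS core. For the ETS core the members were thus close to other genes with open promoters. These are counts of letters and say nothing of whether a factor was bound.

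NRF1 sites are shown because this factor is named for its control of respiratory genes. Each line gives the gene, its coordinates in GRCm38.p6 and its strand, and then 30 bases of the gene's sense strand with the match in capitals.
Ndufa8, chr2:36049329-36049358, minus strand: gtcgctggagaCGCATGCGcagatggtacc
Ndufa11, chr17:56717692-56717721, plus strand: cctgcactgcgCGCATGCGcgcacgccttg
Ndufaf4, chr4:24897960-24897989, plus strand: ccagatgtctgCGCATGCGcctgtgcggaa
Uqcr11, chr10:80406808-80406837, minus strand: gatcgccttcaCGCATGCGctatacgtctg
Uqcrc1, chr9:108936668-108936697, plus strand: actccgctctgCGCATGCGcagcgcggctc
Cox6a1, chr5:115349101-115349130, minus strand: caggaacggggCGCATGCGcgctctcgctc
Atp5k, chr5:108434430-108434459, minus strand: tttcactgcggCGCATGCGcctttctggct
The positions of these 7 sites were spread over the window, from -161 in Cox6a1 to +32 in Uqcrc1.

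The YY1 sites are shown for their position, which was alike from gene to gene. Of the 9 matches in windows that overlap a member DHS, 8 began between +11 (Ndufaf8) and +39 (Ndufb8), just inside the transcribed sequence, and the match at Atp5j began at -88.
Ndufa3, chr7:3617384-3617413, plus strand: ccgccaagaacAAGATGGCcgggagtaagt
Ndufa9, chr6:126849097-126849126, minus strand: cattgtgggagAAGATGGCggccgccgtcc
Ndufc1, chr3:51408915-51408944, minus strand: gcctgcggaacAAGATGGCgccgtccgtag
Ndufs6, chr13:73328433-73328462, minus strand: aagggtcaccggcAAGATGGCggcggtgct
Atp5j2, chr5:145191500-145191529, minus strand: accaggacttcAAGATGGCgtcactcggtg
All 9 matches lay in the same orientation as their gene.

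The ETS sites below belong to genes described further on, and begin between -46 (Sdhd) and +7 (Sdhb).
Ndufb7, chr8:83566727-83566756, plus strand: gcctagatgacCCGGAAGacactgaagggg
Sdhb, chr4:140961266-140961295, plus strand: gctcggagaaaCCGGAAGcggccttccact
Sdhd, chr9:50603877-50603906, minus strand: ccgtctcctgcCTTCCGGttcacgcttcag
Uqcrh, chr4:116075062-116075091, minus strand: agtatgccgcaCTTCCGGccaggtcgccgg
Atp5h, chr11:115419939-115419968, minus strand: caaggagagaaCTTCCGGcaactctcttcc
Among the other motifs searched, the GC box GGGCGG was in 46.1% of the member windows, 35.9% of all and 63.1% of those with a promoter DHS. The estrogen-related receptor (ERR) motif AAGGTCA was in 10.5%, 4.66% and 3.21%, and the Ikaros core TGGGAA in 19.7%, 25.5% and 22.6%. The CCAAT box CCAAT was in 44.7%, 37.9% and 39.0%, and the E box CACGTG in 7.89%, 7.24% and 10.5%. Among the 67 members with a promoter DHS, the shares of these motifs in the order given were 44.8%, 11.9%, 22.4%, 44.8% and 7.46%.

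The members were open promoters. DHS were found at 87.1% of the member genes, against 46.7% of the 21951 protein-coding genes. Of the 90 DHS, 80 contained a TSS, the median centre lay at -28 relative to the nearest start, and the median width was 541.5 bp. By annotation, 83 overlapped an exon, 83 a UTR and 66 coding sequence. On 32 member DHS (35.6%) the TSS of another protein-coding gene also lay within 1000 bp, and each had a neighbour transcribed the other way, against 11.2% of protein-coding promoter DHS with another protein-coding gene. Such neighbours included the ribosomal gene Rps28 at Ndufa7, Mrpl36 at Ndufs6, Timm8b at Sdhd, Ccdc127 at Sdha, Eef1b2 at Ndufs1 and Gabpa, which encodes the DNA-binding subunit of GABP, at the first DHS of Atp5j. The signal of a shared DHS cannot be assigned to either gene.

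Values are log2 of normalised read density, so a difference of 1 is a factor of 2 on the linear scale, and the depth behind each value is unknown. The median member DHS had a level of 5.12 over the 36 libraries, against 4.67 for protein-coding promoter DHS, 4.57 for all promoter DHS and 3.95 for all DHS. In all, 73 members (81.1%) were above the median of promoter DHS and 21 were above the 90th percentile of promoter DHS. The lowest was Ndufa1 at 3.44 and the highest Atp5g1 at 6.23. The levels also moved little from group to group: the median range of the 12 group means was 0.47, against 0.67 for promoter DHS and 0.80 for all DHS, and the median SD between replicates was 0.22, 0.26 and 0.35. The sets were not matched for level or width. DHS of 200 bp or less were 5 of the 90 members, 3492 of 13657 promoter DHS and 24315 of all 52788.

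**Figure D1:**
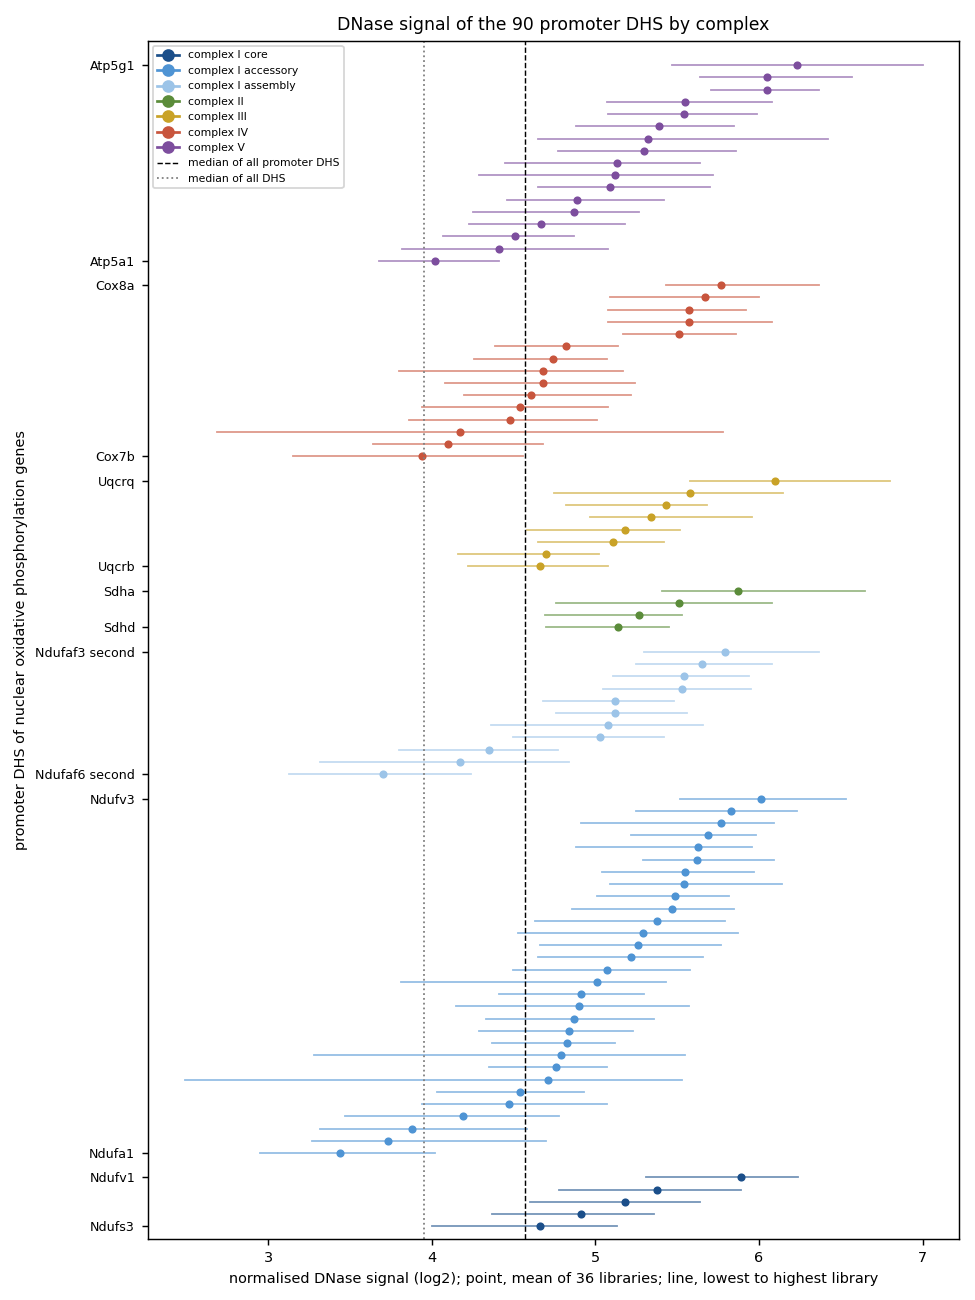
Level of each of the 90 promoter DHS (x axis, log2 normalised DNase signal; point, mean of 36 libraries; line, lowest to highest library), grouped and coloured by complex, with the lowest and highest DHS of each group named and dashed and dotted lines at the medians of all promoter DHS (4.57) and all DHS (3.95). Most points lie to the right of the dashed line, and Ndufa1 (3.44) and Atp5g1 (6.23) mark the ends.

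Among the core subunits of complex I, which carry its electron transfer, Ndufv1, which binds FMN and oxidises NADH, had the highest level at 5.89, and Ndufs3 the lowest at 4.66. Ndufs7 and Ndufs8, core iron-sulfur subunits, had no DHS within 1000 bp, and the nearest lay 3238 and 5152 bp from their starts. The 30 DHS of accessory subunits ran from Ndufa1 (3.44) to Ndufv3 (6.01). The 11 DHS of assembly factors, which build complex I without staying in it, had a median of 5.12 and ran from the second DHS of Ndufaf6 (3.70) to the second of Ndufaf3 (5.79). Complex II was high throughout, with 5.87 at Sdha, the flavoprotein that oxidises succinate, 5.51 at the iron-sulfur subunit Sdhb, and 5.27 and 5.14 at the membrane anchors Sdhc and Sdhd. In complex III, Uqcrq (6.10) was highest and Uqcrb (4.66) lowest. Complex V held the highest member, Atp5g1, 1 of the genes for the c subunit of the membrane rotor. Its paralog Atp5g3 was at 4.67, and Atp5g2 had no DHS within 1000 bp, the nearest being 1993 bp away. The central stalk gene Atp5d had 2 DHS, both at 6.05, while Atp5a1, the alpha subunit, was at 4.02.

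The 3 members on the X chromosome were low. Ndufa1 (3.44), Ndufb11 (3.73) and Cox7b (3.94) ranked 1, 3 and 5 from the lowest of the 90. The 362 promoter DHS on X had a median level of 3.85 against 4.59 for the 13293 on autosomes, and among those on X the 3 members stood at percentiles 29.6, 42.5 and 55.2. Their level was thus near that of other X promoters.

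Complex IV showed its paralog pairs. Widely expressed forms had open promoters: Cox4i1 at 4.68, the first DHS of Cox6a1 at 5.57, Cox6b1 at 4.74, Cox7a2 at 5.51, Cox7a2l at 4.68 and Cox8a at 5.77. Cox4i2, a form of lung and low oxygen, Cox6b2, Cox7b2 and Cox8c, forms of testis, Cox8b, a muscle form, and Ndufa4l2, the hypoxia-linked paralog of Ndufa4, had no DHS within 1000 bp. The nearest DHS lay between 1680 bp (Ndufa4l2) and 13314 bp (Cox8c) from their starts. The muscle forms Cox6a2 and Cox7a1 did have a DHS. That of Cox6a2 was 130 bp wide, at 4.17, and ranged from 2.69 in Control 0 h replicate 6 to 5.78 in Control 2 h replicate 4, with a replicate SD of 0.52. That of Cox7a1 was 533 bp wide, at 4.61, with a replicate SD of 0.13. Of the muscle markers, Myog, Myod1, Actn2 and Myh6 had no promoter DHS. Ndufa4, once counted with complex I and now with complex IV, was at 4.10. The other members with no DHS were Atp5f1, Ndufa6 and Ndufb5.

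Comparing the lines at each time asks whether the Ikaros construct went with a change of these promoters. Differences are the Ikaros line minus the Control line, tested by limma's moderated test on all 36 libraries, with Benjamini-Hochberg adjusted p over all 52788 DHS and a threshold of 0.05. A DHS past it is termed called. The 12 group means span 6 dimensions, so the groups are not independent of each other. Replicate batches were separate cultures.

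At 0 h, 22 of 90 member DHS (24.4%) were called, all of them higher in the Ikaros line. Of all DHS, 12.9% were called in either direction and 7.81% were called higher, while of promoter DHS 24.8% were called higher. The members' share was thus close to that of promoters in general. Their median difference was 0.31, against 0.34 for promoter DHS and -0.06 for all DHS, and 79 of 90 were above 0. The calls covered every complex: 9 of 30 accessory and 0 of 5 core DHS of complex I, 1 of 11 at its assembly factors, 1 of 4 in complex II, 1 of 8 in complex III, 4 of 15 in complex IV and 6 of 17 in complex V. None of the core DHS was called by limma. An unadjusted p under 0.05 was found at 36 of the 90 members (40.0%), against 28.1% of all DHS. The unadjusted share of promoter DHS is not given here, so this does not set members apart from promoters.

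The smallest adjusted p belonged to Sdha (chr13:74349999-74350541). At 0 h its 3 Ikaros libraries had 6.65, 6.21 and 6.35 and its 3 Control libraries 5.45, 5.99 and 5.41. Every Ikaros value was above every Control value. At 0 h the lines did not overlap, in either direction, at 33.3% of members, 36.2% of promoter DHS and 23.6% of all DHS. A gap between the lines was thus common in this table. At Sdha the difference was 0.79 (SE 0.15, adjusted p = 0.00142, limma), with means of 6.40 ± 0.23 and 5.62 ± 0.32 (SD, n = 3). The other subunits of complex II differed less, by 0.29 at Sdhb, 0.26 at Sdhc and 0.11 at Sdhd, with adjusted p of 0.383, 0.286 and 0.701 (limma), so 1 of the 4 genes of this complex was called.

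In complex V, Atp5s (chr12:69724650-69725237), named for ATP synthase factor B, had 5.28, 5.42 and 5.40 in the Ikaros line and 4.46, 4.68 and 4.53 in the Control line at 0 h. The groups did not overlap, and their difference was 0.81 (SE 0.16, adjusted p = 0.00162, limma). Atp5mpl (chr12:111966810-111967324), a small membrane subunit, had 5.47, 5.30 and 5.64 against 4.45, 4.91 and 4.70, a difference of 0.78 (adjusted p = 0.00149, limma). The first DHS of Atp5d and those of Atp5h, Atp5c1 (the gamma subunit) and Atp5o (the OSCP subunit of the peripheral stalk) were also called, by 0.63, 0.77, 0.67 and 0.49. Atp5a1 and Atp5b, which form the catalytic head, were not called.

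Among the accessory subunits of complex I, Ndufb10 (chr17:24724174-24724734) had 5.42, 5.63 and 5.77 in the Ikaros line against 4.80, 5.03 and 4.66, with no overlap. Its difference was 0.78 (SE 0.16, adjusted p = 0.002, limma). Ndufb7 (chr8:83566438-83566978) showed the largest difference, 1.08 (SE 0.25, adjusted p = 0.0062, limma), with 5.55, 5.11 and 5.29 against 4.39, 5.05 and 3.28. The lowest of these, Control replicate 6, lay far below the other values, and without it the difference was 0.60 (adjusted p = 0.0867, limma). The other accessory calls were Ndufb6, Ndufb11, Ndufa7, Ndufc1, Ndufa9, Ndufab1, which is the mitochondrial acyl carrier protein, and the first DHS of Ndufa13, with differences from 0.52 to 0.76. The first DHS of the assembly factor Ndufaf4 differed by 0.75.

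In complex IV, Cox4i1 (chr8:120667993-120668547), the common form of the regulatory subunit IV, had 4.91, 5.17 and 5.00 in the Ikaros line and 4.18, 4.38 and 3.80 in the Control line. The lines did not overlap, and differed by 0.91 (SE 0.21, adjusted p = 0.00562, limma). This DHS was the richest in GC of all members, at 76.4%. Cox5a differed by 0.81, the first DHS of Cox6a1 by 0.63 and Cox7a2 by 0.44. In complex III only Uqcrh, the hinge protein that helps cytochrome c bind, was called, at 0.46.

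The members at the other end did not pass the test at 0 h. The lowest difference, -0.57 at the second DHS of Ndufs5 (131 bp wide), came with 5.14, 2.49 and 4.70 in the Ikaros line, and without the low library, Ikaros replicate 5, it was 0.24. Cox7a1, Ndufa3, Cox7b and the second DHS of Atp5j and of Ndufaf4 lay between -0.29 and -0.26.

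**Figure D2:**
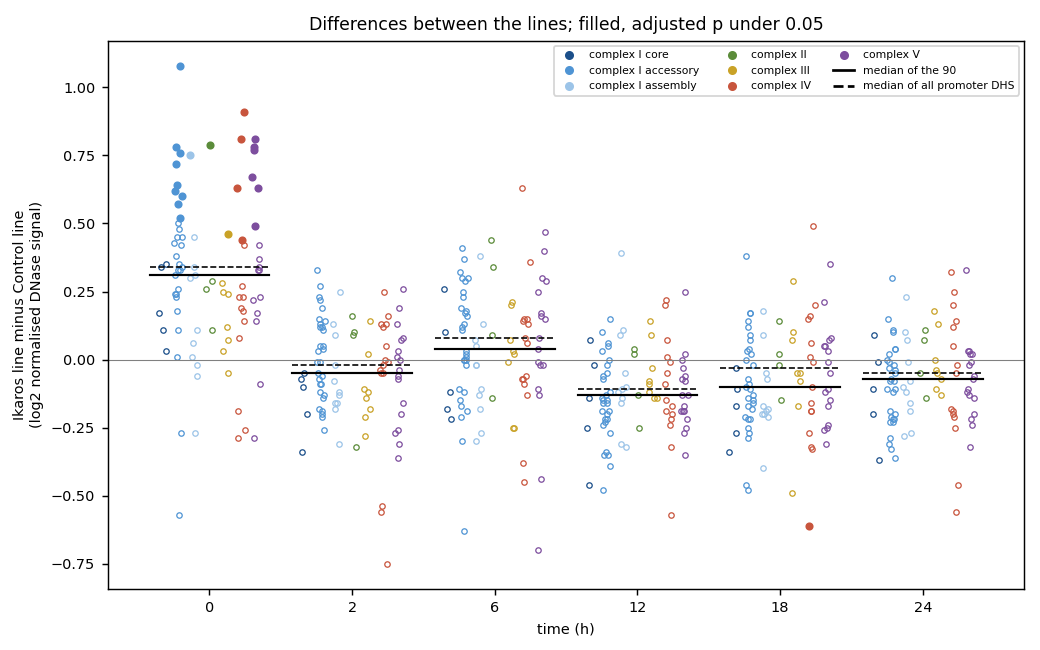
Difference between the lines (y axis, log2) for each of the 90 DHS at each time (x axis, h), coloured by complex, with called DHS filled and others open. Solid and dashed bars are the medians of the 90 and of all promoter DHS. The filled points are at 0 h (22) and at 18 h (1, Cox7a1), and the 0 h bars (0.31 and 0.34) stand above those at later times.

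GC content moved with the 0 h difference, while the median level was 5.12 both for called members and for the others. Across the 90 members, the difference correlated with the GC content of the DHS (Pearson r = 0.56, a description across DHS that share their libraries), as it did across promoter DHS (0.63) and all DHS (0.44). In the third of members richest in GC (61.9% to 76.4%), 11 of 31 were called with a median difference of 0.42, against 7 of 30 and 0.28 in the middle and 4 of 29 and 0.23 in the third poorest in GC (37.6% to 56.7%). The part of GC content in the difference was not tested beyond this. With smooth trends in level, width and GC taken out of each library, the median was 0.02 and Sdha differed by 0.31 and Ndufb10 by 0.48 (adjusted p = 0.221 and 0.0571, limma), and the direction turned at Atp5s (-0.05) and Cox4i1 (-0.25). The 4 members called then were Atp5mpl, which was higher (0.69, adjusted p = 0.0115, limma), and Ndufv1, Ndufaf7 and Uqcrq, which were lower (-0.43, -0.51 and -0.42), named here after their values were seen. Centring each library on its promoter DHS moved every 0 h difference by -0.35, so that the median of all DHS was -0.41 and that of the members -0.04, with 6 members called higher and 5 lower. Sdha, Ndufb10, Atp5mpl, Atp5s, Cox4i1 and Ndufb7 were the 6 called higher, by 0.43 to 0.73, while Cox7a1 (-0.64), Cox7c (-0.54), Ndufa3 (-0.62), Ndufaf7 (-0.41) and the second DHS of Atp5j (-0.64) were called lower.

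**Figure D3:**
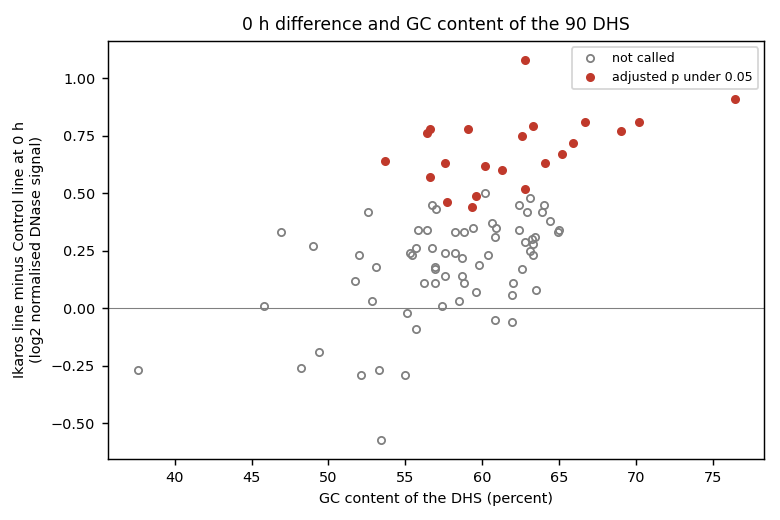
Difference between the lines at 0 h (y axis, log2) against the GC content of the DHS (x axis, percent) for the 90 members, with called DHS in red. The points rise to the right (r = 0.56), and Cox4i1 is the red point furthest right (76.4%).

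Control 0 h replicate 6 also bore on the count. It was the lowest of the 3 Control 0 h libraries at 16 of the 22 called DHS, its median over the members was 4.73 against 4.93 and 5.07 in replicates 4 and 5, and without it 4 members were called, namely Sdha, Ndufb10, Atp5s and Atp5mpl. Without Ikaros 0 h replicate 6 the count was 11, and without replicate 6 of every group it was 1. Over promoter DHS the median of Control 0 h replicate 6 was 4.36, against 4.41 and 4.58 in replicates 4 and 5. Over all DHS its median was 4.11, the highest of the 36 libraries, and Ikaros 0 h replicate 6 had the lowest, 3.90. The library was thus low at promoters and not over the whole table. Why it was low there was not tested. When only the 6 libraries of 0 h were fitted, no member was called by limma, and the smallest adjusted p was 0.137. The shares of all DHS called in these smaller sets of libraries are not given here.

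After 0 h the lines were closer. At 2 h no member was called by limma (0.195% of all DHS were), with 3 at an unadjusted p under 0.05. At 6 h it was also 0 (0.578%), with 9 unadjusted, at 12 h 0 (1.31%), with 6 unadjusted, and at 24 h 0 (1.33%), with 3 unadjusted. At 18 h 1 was called and lower (0.699% of all DHS were called in either direction and 0.199% lower), with 5 unadjusted. In order of time, these unadjusted counts were 3.33%, 10.0%, 6.67%, 5.56% and 3.33% of members. The shares of all DHS were 10.0%, 13.8%, 15.8%, 13.1% and 14.7%. The median differences of the members were -0.05, 0.04, -0.13, -0.10 and -0.07 at 2, 6, 12, 18 and 24 h, against -0.02, 0.08, -0.11, -0.03 and -0.05 for promoter DHS. At 24 h the highest differences were at Atp5o (0.33), Cox5a (0.32), Ndufa10 (0.30), Cox7c (0.25) and the second DHS of Ndufaf4 (0.23), and low differences were found at the second DHS of Cox6a1 (-0.56), Cox7a1 (-0.46), Ndufs4 (-0.36) and Ndufc2 (-0.33). None of these passed the threshold, and the smallest adjusted p at 24 h was 0.0784 (limma).

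**Figure D4:**
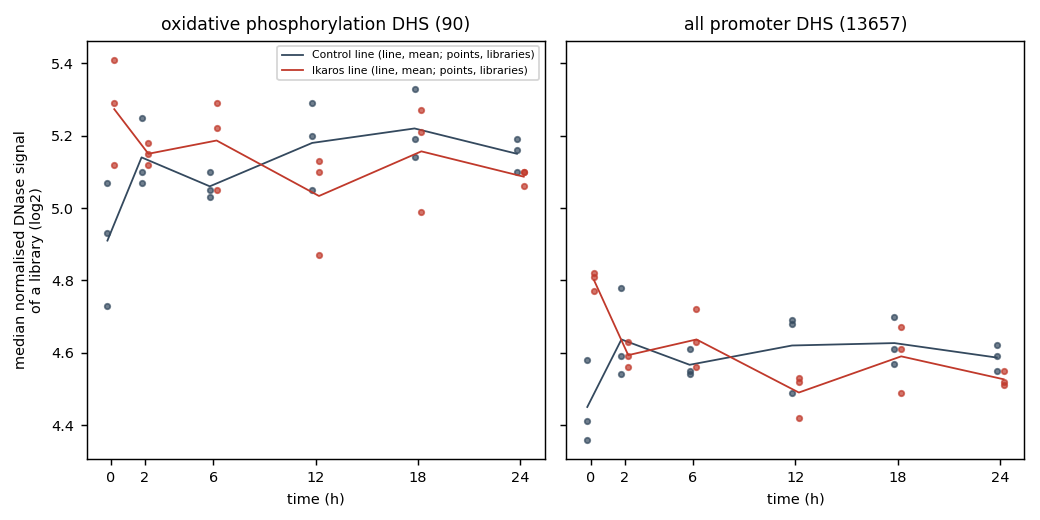
Median signal of each library (points, log2) over the 90 members (left) and over all 13657 promoter DHS (right) by time (x axis, h), with lines through the mean of the 3 libraries. In both panels the Ikaros line is above the Control line at 0 h, and the points of the lines overlap or lie close from 2 h on.

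The member called at 18 h was Cox7a1 (chr7:30183852-30184385), the muscle form of subunit VIIa. Its Ikaros libraries had 4.27, 4.40 and 4.44 and its Control libraries 5.03, 4.97 and 4.93. They did not overlap, and the difference was -0.61 (SE 0.14, adjusted p = 0.0266, limma). At 18 h the lines did not overlap, in either direction, at 23.3% of members, 20.8% of promoter DHS and 23.2% of all DHS. The Ikaros line was lower at each of the other times too, by -0.29, -0.56, -0.45, -0.32 and -0.46 at 0, 2, 6, 12 and 24 h, with adjusted p of 0.158, 0.0685, 0.115, 0.239 and 0.0833 (limma), and the libraries of the lines overlapped only at 12 h. Over all times the 18 Ikaros libraries ran from 4.20 to 4.59 and the 18 Control libraries from 4.40 to 5.22. The call at 18 h was lost when any of the 6 libraries of that time was left out, with adjusted p from 0.0577 to 0.141, while the difference stayed between -0.64 and -0.56. Its paralog Cox7a2, the widely expressed form, was called higher at 0 h and differed by -0.05 at 24 h.

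Cox7a1 is shown with the bases before its first annotated start, chr7:30183921-30184143 on the plus strand of GRCm38.p6, because it was the member called at 18 h. The capitals mark 2 CCAAT boxes in reverse.
Cox7a1: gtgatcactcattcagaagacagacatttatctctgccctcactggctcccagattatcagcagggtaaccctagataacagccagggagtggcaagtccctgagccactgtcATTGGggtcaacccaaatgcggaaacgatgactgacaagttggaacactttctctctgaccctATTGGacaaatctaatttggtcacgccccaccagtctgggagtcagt
None of the other 7 motifs was found in the 300 bases of its window.

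Cox6a1 had 2 DHS. Its first DHS (chr5:115348814-115349340) holds the start, and its second (chr5:115347523-115348041) lies in an intron, 940 bp from the start. At 24 h the second DHS had 3.91, 4.49 and 3.86 in the Ikaros line and 4.73, 4.58 and 4.63 in the Control line, which did not overlap, and differed by -0.56 (adjusted p = 0.0784, limma). The Ikaros values were also below every Control value at 2, 6, 12 and 18 h. At 24 h the lines did not overlap, in either direction, at 17.8% of members, 23.2% of promoter DHS and 25.5% of all DHS. At 0 h the means of the second DHS were 4.75 ± 0.13 in the Ikaros line and 4.48 ± 0.31 in the Control line (SD, n = 3). The first DHS was called higher at 0 h (0.63) and differed by -0.20 at 24 h, with overlapping lines. From 0 h to 24 h the difference changed by -0.83 at both, with adjusted p of 0.0588 at the first and 0.0332 at the second (limma), and the DHS were not tested against each other.

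**Figure D5:**
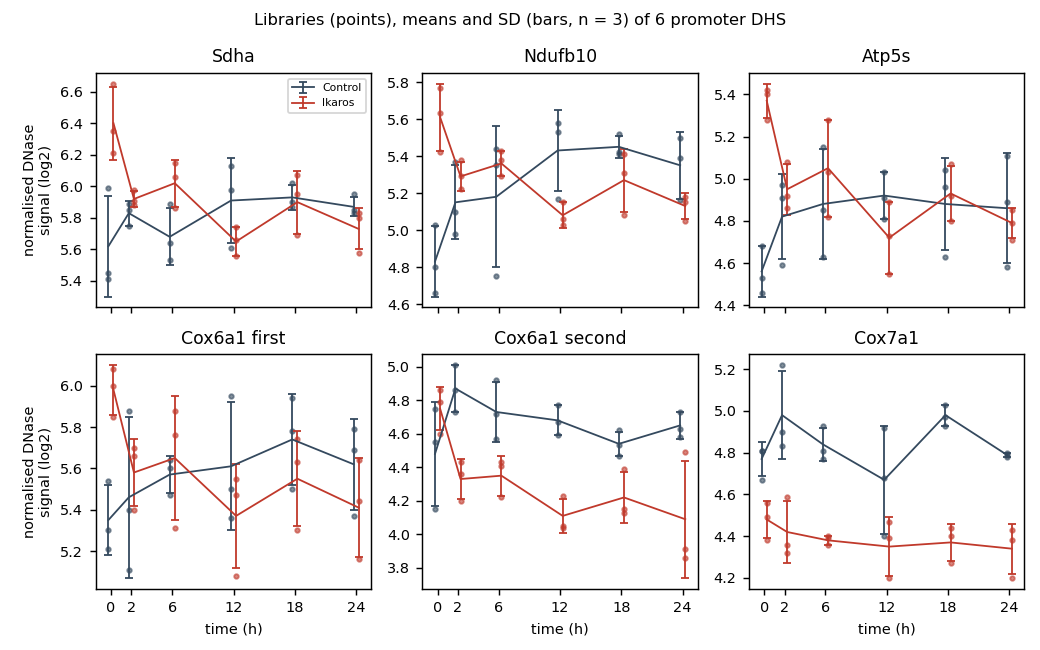
Signal of 6 promoter DHS (y axis, log2; each panel has its own range) by time (x axis, h) in the Ikaros and Control lines (points, libraries; bars, mean and SD, n = 3). At Sdha, Ndufb10, Atp5s and the first DHS of Cox6a1 the lines are apart at 0 h, and at Cox7a1 the Ikaros mean is below the Control mean at every time.

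The change of the difference between the lines from 0 h to 24 h asks whether the lines moved apart or together. It was called at 9 of 90 members (10.0%), all falling, against 6.26% of all DHS called in either direction, 3.40% of all DHS falling and 10.1% of promoter DHS falling. Again the share was near that of promoters. The median change was -0.35, against -0.42 for promoter DHS. The 9 were Ndufb10, Sdha, Atp5s, Atp5mpl, Ndufb7 and the first DHS of Atp5d and of Ndufa13, which had been called at 0 h, and Ndufaf8 and the second DHS of Cox6a1, which had not. Ndufb10 fell by 1.00 (SE 0.22, adjusted p = 0.0125, limma) and Sdha by 0.93 (SE 0.21, adjusted p = 0.0142, limma). Single libraries moved this count. It was 17 when Control 0 h replicate 5 was left out, 3 when replicate 6 of Control 24 h was, and 5 when replicate 5 of Ikaros 24 h was. Leaving out Control 0 h replicate 6, replicate 4 of Control 24 h or replicate 6 of Ikaros 24 h gave 4 each. Of the 9, Sdha and Ndufb10 were also called after centring on promoter DHS (-0.51 and -0.59), and none was after quantile normalisation or removal of trends. The highest changes, none of them called, were at the second DHS of Ndufaf4 (0.49) and at Cox7c (0.44), which was called as a rise of 0.93 after quantile normalisation and of 0.85 after centring on promoter DHS. From 2 h to 24 h no member was called by limma, nor was any DHS of the table (0.00%). No member had an unadjusted p under 0.05, against 2.85% of all DHS. The smallest adjusted p was 1.

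Both called groups rest on 0 h, the time collected separately. Of the 22 members called at 0 h, the 24 h differences ran from -0.23 to 0.33 with a median of -0.07, and 16 were below 0. In 46 of the 90 members the lowest of the 12 group means was Control 0 h and in 40 the highest was Ikaros 0 h, against 36.5% and 45.7% of promoter DHS. Over the 10 later groups the median range of the means was 0.36 in the members and 0.47 in promoter DHS. Over all 12 groups it was 0.47 and 0.67. Leaving groups out can only keep or lower a range, so the lower values do not bear on 0 h in particular.

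F-tests over all times gave few calls. The interaction of line and time was called at Ndufb10 (adjusted p = 0.0356, limma) and Sdha (0.0428), 2 of 90 members beside 1.10% of all DHS. Unadjusted p was under 0.05 at 18 members (20.0%), against 14.4% of all DHS. Shares of promoter DHS in the F-tests are not given here. With the replicate batch as a block, adjusted p at Ndufb10 and Sdha was 0.0566 and 0.0659 (limma) and neither was called. Nor was either after quantile normalisation, centring on promoter DHS or removal of trends. Leaving out 1 library at a time gave 0 to 4 calls, with 0 in 15 of 36 cases. Change over time within the Ikaros line was called at Sdha (adjusted p = 0.0311, limma; 2.29% of all DHS), whose group means were 6.40, 5.92, 6.02, 5.65, 5.90 and 5.73 from 0 to 24 h. The highest was at 0 h, and leaving out any 0 h or 12 h Ikaros library, or replicate 5 or 6 of 24 h, ended the call, with adjusted p from 0.0504 to 0.258. So did quantile normalisation (adjusted p = 0.353, limma), centring on promoter DHS (0.17), removal of trends (1) and a fit without the intensity trend (0.0725). In the Control line no member was called by limma (0.148% of all DHS), with 7 unadjusted (7.78%, against 12.6% of all DHS). The smallest adjusted p in this line was 0.181 (limma), at Ndufb10. Its Control means were 4.83 at 0 h and 5.45 at 18 h.

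Ndufb10 had the smallest p of all members in the interaction, and its window held none of the 8 motifs. The bases before its first annotated start, chr17:24724479-24724673 on the minus strand of GRCm38.p6, are given for that reason.
Ndufb10: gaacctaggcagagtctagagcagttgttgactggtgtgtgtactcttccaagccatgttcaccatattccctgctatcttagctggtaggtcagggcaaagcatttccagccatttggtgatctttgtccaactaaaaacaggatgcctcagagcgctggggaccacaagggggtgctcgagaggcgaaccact
The absence of these letters in the window says nothing of the factors. Among the 66 member DHS that overlap a window, the median 0 h difference was 0.28 with the NRF1 core (2 of 10 called) and 0.34 without it (16 of 56), 0.34 with and 0.33 without the ETS core (5 of 17 and 13 of 49), and 0.34 with and 0.31 without the YY1 core (2 of 9 and 16 of 57). No test was made of these counts. Levels were 5.44 with and 5.10 without the NRF1 core in the median, 5.18 and 5.09 for the ETS core, and 5.01 and 5.14 for the YY1 core.

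Genes that act with these complexes were taken as 3 further lists, chosen with earlier results of these data known. Electron carriers and assembly factors outside the prefixes had 44 promoter DHS, of which 9 were called higher at 0 h and 0 lower, with a median difference of 0.36. They included Ttc19 (1.13), an assembly factor of complex III, Atpaf2 (1.01) of complex V, Coa7 (0.81) of complex IV and Sdhaf2 (0.84) of complex II. Genes that express the mitochondrial genome, with regulators of mitochondrial genes, had 27 DHS with 11 called higher and a median of 0.51. Among these were Nrf1 itself (1.25, SE 0.26, adjusted p = 0.00266, limma), Yy1 at both of its DHS (1.17 and 0.73), Gabpb1 (0.61), Tfam (0.66), which packages mitochondrial DNA, and Polrmt (0.54), its RNA polymerase. The tricarboxylic acid cycle had 25 DHS with 2 called higher, Sucla2 (0.92) and Dlst (0.76), and a median of 0.34. These shares stand beside the 24.8% of promoter DHS called higher. From 2 to 24 h no DHS of the 3 lists was called at any time by limma in the difference between the lines. The change from 0 h to 24 h was called as a fall at 6 of 44, 3 of 27 and 1 of 25 of their DHS, beside 3.40% of all DHS and 10.1% of promoter DHS, among them Yy1 (-1.34), Ttc19 (-0.97), Cox20 (-0.88) and Idh3g (-0.77).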

How the data were processed

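The deposited values are log2 normalised DNase signal, made by the authors as follows: reads were trimmed and aligned to mm10 with Bowtie2, narrow and broad peaks were called in each replicate with HOMER and merged to a consensus, reads were counted per DHS with bedtools, and the values were scaled as RPKM with TMM and corrected for noise with ARSyN after low DHS had been removed. Counts were not used here, so the depth of each library is unknown, and the noise correction can lower the spread between replicates and tie groups together. Whether the first base is numbered 0 or 1 is not given in the sources used here.

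One table of 52788 DHS in 36 libraries was analysed, with 3 libraries in each of 12 groups taken from the labels. limma 3.58.1 in R 4.3.3 was fitted to all DHS with 12 group means and an intensity trend, two-sided, with Benjamini-Hochberg adjustment over all 52788 DHS and a threshold of 0.05. F-tests covered the interaction and time within a line. On simulated data with 200 DHS changed by 2 (log2), 168 were recovered at 0 h with 10 false calls. The simulated noise was independent, unlike the deposited values, and the largest member difference at 0 h was 1.08. Recovery and false calls at differences of the members' size were therefore not measured. The replicate number is the batch in the labels and so pairs the samples, and the deviations of same-numbered libraries correlated between -0.175 and 0.183.

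Named are DHS past the threshold (at most 10 per comparison by adjusted p, others more briefly), the 5 highest and lowest differences at 0 h, at 24 h and in the change, the highest and lowest level per complex, complex II, the paralog pairs and genes with no DHS. Some items under this rule are not reported here. The members, lists and named-gene rule were chosen with earlier results of these data known. Alternatives were the 2 groups alone, a spread per group, the batch as a block, quantile normalisation, centring on promoter DHS, removal of trends with level, width and GC, no intensity trend, the lowest 25% of DHS left out, a 500 bp window, and each replicate or library left out.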

Additional observations from a re-analysis of the deposited data

Results flagged for a closer look

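In 9 of the 90 member DHS the difference between the lines changed from 0 h to 24 h, by a test of the change itself (limma, adjusted over all DHS, on the log2 scale, n = 3 libraries per group). All 9 fell, and their share (10.0%) was near that of promoter DHS called as falling (10.1%), beside 3.40% of all DHS. In complex I, Ndufb10 fell by 1.00 (adjusted p = 0.0125), and the others were Ndufb7 (-1.18, adjusted p = 0.0445), the first DHS of Ndufa13 (-0.75, adjusted p = 0.039) and the assembly factor Ndufaf8 (-0.61, adjusted p = 0.0444). In complex II it was Sdha (-0.93, adjusted p = 0.0142) and in complex IV the second DHS of Cox6a1 (-0.83, adjusted p = 0.0332). In complex V these were Atp5s (-0.88, adjusted p = 0.0219), Atp5mpl (-0.85, adjusted p = 0.0218) and the first DHS of Atp5d (-0.85, adjusted p = 0.0215). With single libraries left out, the change at Ndufb7 ran from -1.59 to -0.71. Ndufb10 and Sdha also differed between the lines in their course over all 6 times (interaction of line and time, adjusted p = 0.0356 and 0.0428, limma). With the replicate batch as a block, these were 0.0566 and 0.0659 and Ndufaf8 in the change had 0.0587, so these 3 calls were lost.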

How the results depend on the processing

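The calls at 0 h and in the change depended on the processing, and the cause was not tested. The shares of all DHS called under these alternatives, or with libraries left out, are not given here. The counts below thus do not show whether members lost more calls than other DHS. At 0 h, the count of 22 was 0 with only the groups compared, 6 with a spread per group, 11 after quantile normalisation, 11 after centring on promoter DHS and 4 with trends removed. In the change from 0 h to 24 h, the count of 9 was 0, 5, 3, 3 and 1 in the same order. The 5 were among the 9, as were Sdha and Ndufb10 after centring, whose other call was a rise at Cox7c. None of the 9 was called after quantile normalisation (Cox7c, Ndufb11 and Ndufa1 were) or with trends removed (Ndufv1 was, as a rise). At 18 h the count of 1 was 0 with only the groups compared, after quantile normalisation and with trends removed. Quantile normalisation gave 1 call at 12 h and 1 at 24 h, both Cox7c, and a spread per group gave 2 at 24 h, Cox6a1 second and Cox7a1. The interaction had 0 with a spread per group, with trends removed and with no intensity trend, and 1 after quantile normalisation or centring, which was Cox7c, so that neither Ndufb10 nor Sdha was called. Time in the Ikaros line had 2 after quantile normalisation, centring (both Cox7c and Ndufv1) or trend removal (Uqcrq and Ndufv1) and 0 with no intensity trend, and Sdha was called under none of these 4.

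With the replicate block, the interaction had 0 calls, Atp5o at 0 h (adjusted p = 0.0516, limma) and Ndufaf8 in the change (0.0587) were lost, and no other call changed.

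Median differences moved by at least the SD between replicates (0.11). At 0 h the median was 0.10 after quantile normalisation, -0.04 after centring and 0.02 with trends removed, and in the change -0.07, 0.06 and 0.10. After quantile normalisation it was 0.11, 0.18, 0.04, 0.06 and 0.06 at 2, 6, 12, 18 and 24 h, and with trends removed 0.07, 0.10, 0.04 and 0.12 at 2, 12, 18 and 24 h. After centring it was 0.00 at 12 h.

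With each replicate number left out, the count ran from 1 to 15 at 0 h, 0 to 2 in the change, 0 to 0 at 18 h, in the interaction and for time in the Ikaros line, and 0 to 2 for time in the Control line. With single libraries left out it ran from 4 to 27 at 0 h, 3 to 17 in the change, 0 to 4 in the interaction, 0 to 1 at 2 h, 24 h and for time in the Ikaros line, and 0 to 0 at 18 h. Medians ran from 0.19 to 0.42 at 0 h, -0.17 to 0.01 at 18 h and -0.51 to -0.23 in the change.

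Directions turned at these DHS. With trends removed, Atp5s was at -0.05, Cox4i1 at -0.25 and Ndufaf4 second at 0.22 at 0 h, Ndufaf4 second at -0.14 at 24 h, and in the change Atp5s at 0.01, Ndufaf8 at 0.11 and Ndufaf4 second at -0.37. With replicates or libraries left out, Ndufaf4 second ran from -0.72 to 0.22 and Ndufs5 second from -1.09 to 0.28 at 0 h. In the change, Ndufs5 second ran from -0.54 to 0.94, Atp5j second from -0.07 to 0.46 and Ndufa3 from -0.07 to 0.36.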
